A study of Homo sapiens with 8 samples.

Results

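The genes described here are *BRCA1*, *PALB2*, *BRCA2*, *XRCC2*, *FANCD2*, *MSH6* and *PMS2*, 7 DNA repair genes chosen by symbol out of 23193 genes counted in PRO-seq libraries of HCT116 cells. PRO-seq lets engaged RNA polymerases extend their transcripts for a short time in isolated nuclei, so that reads count polymerases at work rather than RNA that has built up. HCT116 is an established human colorectal carcinoma line. WT cells were compared with HIF1A-/- cells, in which part of the *HIF1A* gene had been removed by homologous recombination, and each genotype was kept in normoxia or in hypoxia (1% O2 for 90 min), with DMSO vehicle in every culture. There were 2 independent cultures and libraries in each of the 4 groups. The HIF1A-/- genotype was represented by 1 derived line, so loss of *HIF1A* and other differences between the lines cannot be told apart. All 7 genes were present in both count tables, 1 of the region around the transcription start site (TSS, 551 bp) and 1 of the gene body, and all 7 passed the filter on low counts in both.

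Homologous recombination repairs a broken chromosome by copying the undamaged sister molecule, and mismatch repair removes wrong bases left by the replicating polymerase. In the first pathway *BRCA1* encodes a scaffold that is joined by the *PALB2* protein to the *BRCA2* protein, which acts on single-stranded DNA at the break, and *XRCC2* encodes a protein that assists in this step. *FANCD2* encodes the protein that is ubiquitinated at crosslinked DNA in the Fanconi anaemia pathway and links it to recombination. *MSH6* encodes a subunit of a complex that recognises mismatches, and *PMS2* encodes a subunit of a complex that nicks the faulty strand. Genes of both pathways are known to be expressed at lower levels in several cancer cell lines after long hypoxia.

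The promoters of 4 of the genes are printed because later results turn on them. *BRCA2* and *MSH6* had the clearest differences by oxygen or genotype. *FANCD2* is set beside *BRCA2* at its TSS, and *BRCA1* shares its promoter with a gene on the other strand. The sequences are the bases just before the counted TSS, read 5′ to 3′ on the strand of the gene from GRCh37. They cover chr13:32889496-32889615 (plus strand) for *BRCA2*, chr2:48010100-48010219 (plus) for *MSH6*, chr3:10068031-10068150 (plus) for *FANCD2* and chr17:41277501-41277572 (minus) for *BRCA1*. Capitals mark GCGTG and CACGTG in *BRCA2*, GGGCGG on either strand in *MSH6*, ACGTG (on the opposite strand) and GGCGGGAA in *FANCD2*, and CCAAT in *BRCA1*.
BRCA2: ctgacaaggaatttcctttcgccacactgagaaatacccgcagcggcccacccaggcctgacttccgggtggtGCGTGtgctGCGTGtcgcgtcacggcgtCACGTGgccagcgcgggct
MSH6: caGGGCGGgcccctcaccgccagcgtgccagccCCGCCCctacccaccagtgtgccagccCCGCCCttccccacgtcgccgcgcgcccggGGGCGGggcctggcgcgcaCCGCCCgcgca
FANCD2: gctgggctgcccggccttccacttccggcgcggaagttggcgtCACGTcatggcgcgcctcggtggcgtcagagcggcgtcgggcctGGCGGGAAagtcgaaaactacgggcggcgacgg
BRCA1: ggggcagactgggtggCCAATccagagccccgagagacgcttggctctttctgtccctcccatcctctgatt

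Searched on both strands from 250 bases before to 50 bases after the TSS, the core letters of the HIF binding site, ACGTG and GCGTG, were found in 3 and 5 of the 7 genes, against 22.5% and 41.1% of all 23193 promoters. *BRCA2* and *MSH6* each held both, and the share of all promoters that hold both was not counted. *BRCA2* had 2 copies of GCGTG and 1 CACGTG within 50 bases of its TSS. *MSH6* had ACGTG on the opposite strand from -49 to -45 and GCGTG starting at -174 and at -98, which its capitals do not mark. CACGTG, the letters of an E-box, contains ACGTG on each strand and was present in 7.92% of all promoters. *MSH6* had 5 copies of the GC box GGGCGG, which 51.7% of promoters hold at least once. *FANCD2* was the only one of the 7 with the E2F letters TTTCCCGC (1.87% of promoters) or GGCGGGAA (3.55%), and the 2 matches overlap. *PMS2* and *XRCC2* each held the cAMP response element TGACGTCA, as did 2.19% of promoters. CCAAT was found in 4 of the genes and in 35.5% of all promoters, while TTTGAA was in 13.2% of promoters and in none of the 7. These matches describe letters in a window and not sites in use.

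Of the 7 genes, 3 had a head-to-head neighbour among the counted TSS regions. The TSS of *BRCA1* lay 73 bp from that of *NBR2*, a noncoding neighbour, the TSS of *PALB2* lay 8 bp from that of *DCTN5*, a dynactin subunit gene, and the TSS of *FANCD2* lay 331 bp from that of the pseudogene *CIDECP*. *BRCA2*, *MSH6*, *PMS2* and *XRCC2* had no counted TSS on the opposite strand within 1000 bp. The libraries are labelled as strand-specific.

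All 7 genes were transcribed in every library, at moderate levels. As reads per kb of gene body per 1000000 reads (RPKM), *MSH6* averaged 4.06 and *XRCC2* 3.91 over the 8 libraries, at percentiles 84.0 and 83.2 of the 16686 gene bodies tested. *BRCA1* followed at 2.19, *FANCD2* at 1.85, *PALB2* at 1.52, *PMS2* at 1.30 and *BRCA2* at 1.26, the last at percentile 48.9. Neighbours in this order had overlapping ranges over the libraries except at 1 step, since the lowest *XRCC2* library (3.11 RPKM) lay above the highest *BRCA1* library (2.53). Gene body counts ran from 883 reads in the lowest *PMS2* library to 4427 in the highest *BRCA1* library. By counting alone, 883 reads give an error of 3.37%, which leaves out the spread between libraries.

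The order was different at the TSS, where RPKM was scaled to TSS totals and is not comparable in size with that of gene bodies. *PMS2* had the highest TSS density, at 465 RPKM and percentile 97.0 of the TSS regions tested, and *BRCA2*, the lowest of the gene bodies, came next at 381 RPKM and percentile 95. *MSH6*, *FANCD2* and *PALB2* lay between 197 and 235 RPKM. *XRCC2* (84.7) and *BRCA1* (47.9) were lowest, and *BRCA1* had only 66 to 165 reads at its TSS, which by counting alone gives an error of 12.3% in the lowest library. Counting errors do not include PCR copies, which are not independent molecules.

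The pausing index, the CPM per base at the TSS divided by that in the gene body, sets these together. CPM was scaled to the total of each region's own counts, and TSS totals were 12.7% to 25.3% of gene body totals. The index is therefore larger than the ratio of raw read densities. It serves to rank genes by how much polymerase waits near the start, and not to count waiting polymerases for each one that elongates. Its geometric mean over the 8 libraries was 359 in *PMS2* and 302 in *BRCA2*, at percentiles 96.1 and 94.9 of the 14494 genes tested, whose median was 46.2. It was 129.7 in *PALB2*, 120.1 in *FANCD2*, 56.7 in *MSH6*, 21.7 in *XRCC2* and 21.5 in *BRCA1*. No library of *PMS2* or *BRCA2* came below 268, and no library of *XRCC2* or *BRCA1* came above 26.4, so these genes did not overlap. *PMS2* has near-identical copies elsewhere in the genome, and reads of low mapping quality had been removed. Its counts are therefore uncertain, and so are its index and rank.

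**Figure D1:**
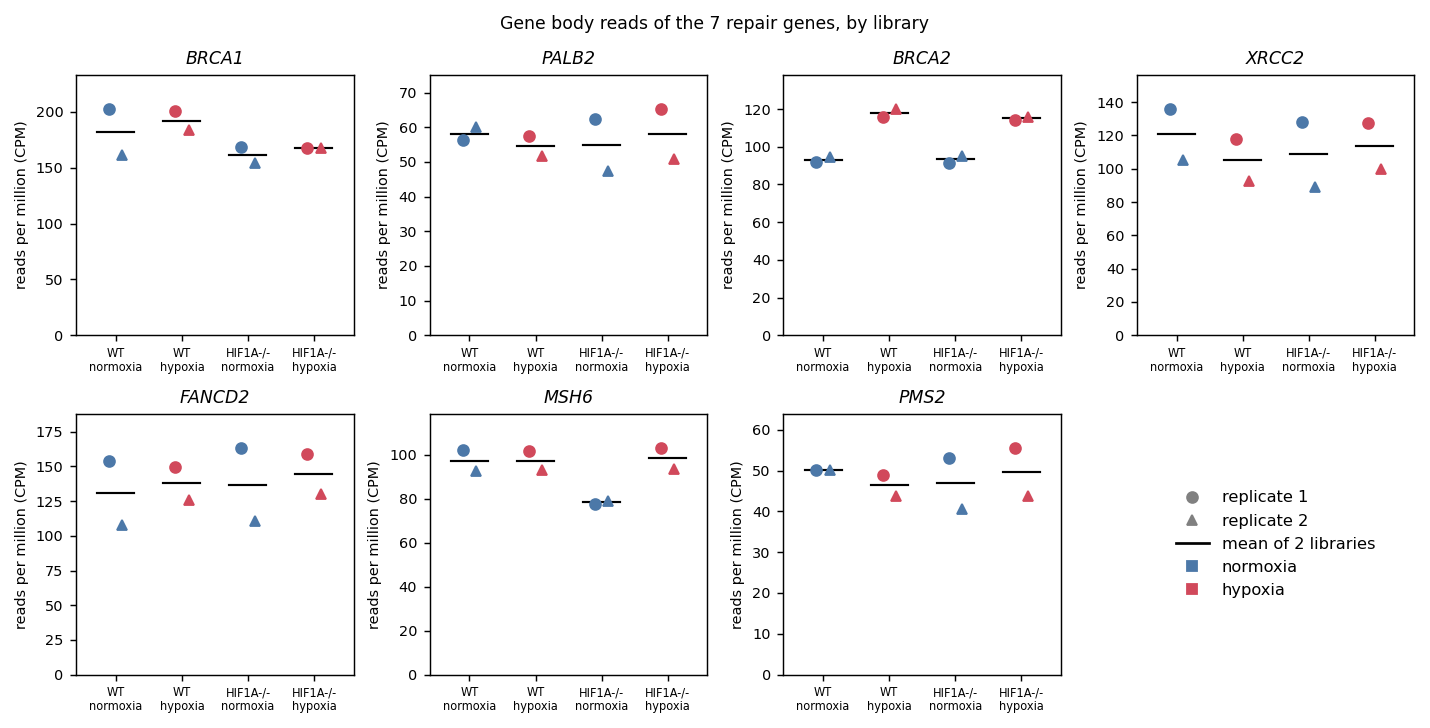
Gene body counts per 1000000 reads (CPM, y axis from 0) of the 7 repair genes in the 4 groups, with each library as a point (circle, replicate 1; triangle, replicate 2) and the mean of 2 libraries as a line. In *BRCA2* all 4 hypoxia libraries lie above all 4 normoxia libraries, and in *MSH6* both HIF1A-/- normoxia libraries lie below the other 6, while in *XRCC2* and *FANCD2* replicate 2 lies below replicate 1 in every group.

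The first comparison asks whether 90 min of hypoxia changed polymerase in the bodies of these genes, and whether that depended on *HIF1A*. *BRCA2* was the one gene with higher counts in hypoxia in both genotypes and in both replicates of each. Its gene body counts were 26.8% higher in WT and 23.3% higher in HIF1A-/- cells. *MSH6* had higher counts in hypoxia in HIF1A-/- cells and level counts in WT cells. In the other 5 genes the libraries of hypoxia and normoxia overlapped in both genotypes, except that both WT hypoxia libraries of *PMS2* lay below its WT normoxia libraries. edgeR's quasi-likelihood test at an FDR of 10%, without a term for the replicate number, called 0 of the 7 in WT cells, where it called 0.431% of all gene bodies, and 0 of the 7 in HIF1A-/- cells, where it called 0.0% of all gene bodies. At an unadjusted p under 0.05 the counts were 1 (*BRCA2*) and 2 (*BRCA2* and *MSH6*), and DESeq2 called 0 of 7 in each genotype.

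*BRCA2* (gene body chr13:32890617-32973809, plus strand) had gene body counts per 1000000 reads (CPM) of 91.7 and 94.7 in the 2 WT normoxia libraries against 116 and 120.3 in those of WT hypoxia. In HIF1A-/- cells it stood at 91.4 and 95.2 CPM in normoxia and at 114 and 116 in hypoxia. The 4 hypoxia libraries thus lay above the 4 normoxia libraries with no overlap, which held for 1.69% of all gene bodies (and 4.37% had hypoxia above normoxia within each genotype). The increase had a 95% interval of 6.06% to 51.5% in WT cells and of 3.21% to 47.4% in HIF1A-/- cells. As log2 fold changes the increases were 0.34 (standard error 0.11, edgeR adjusted p = 0.877) and 0.30 (standard error 0.11, edgeR adjusted p = 1.00). With the replicate number as a term in the fit (the replicate block), the adjusted p was 0.0738 in WT cells, where this fit called 5.51% of all gene bodies, and 0.288 in HIF1A-/- cells, where it called 0.036%.

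The *BRCA2* responses of the genotypes were not called different, with a log2 difference of 0.04 and a 95% interval of -0.32 to 0.40. A comparison of all 4 hypoxia with all 4 normoxia libraries, added after these values had been seen, gave a *BRCA2* increase of 25.0% (10.2% to 41.9%) with an edgeR adjusted p of 0.384, in a comparison where edgeR called 0.0899% of gene bodies. The same comparison had an adjusted p of 0.0230 with the replicate block, which called 10.1% of gene bodies, and of 0.0464 with DESeq2, which called 1.29%. Leaving out each library in turn gave log2 fold changes between 0.31 and 0.35.

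*MSH6* (chr2:48011221-48034092, plus strand) stood at 102 and 92.5 CPM in normoxia and 102 and 93.0 in hypoxia in WT cells, while HIF1A-/- cells had 77.7 and 79.0 in normoxia and 103 and 93.6 in hypoxia. The 2 HIF1A-/- normoxia libraries were thus low and the other 6 lay together, a pattern whose share over all gene bodies was not counted. Both HIF1A-/- hypoxia libraries lay above both HIF1A-/- normoxia libraries, as for 12.1% of gene bodies. In HIF1A-/- cells the hypoxia count was 25.5% higher (95% interval 2.64% to 53.6%, log2 fold change 0.33, edgeR adjusted p = 1.00, 0.292 with the replicate block). In WT cells the difference was -0.0973%, with an interval of -18.3% to 22.2%. The difference between these responses had a log2 value of -0.33 (standard error 0.18) with 1.00 as its adjusted p.

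Of the other genes of recombination, *BRCA1* (chr17:41196311-41276499, minus strand) had WT counts of 203 and 162 CPM in normoxia and 201 and 184 in hypoxia, and between 154 and 168 in the 4 HIF1A-/- libraries. Its WT interval for hypoxia ran from -15.9% to 32.1%. *PALB2* (chr16:23614482-23651677, minus strand) had WT counts of 56.2 and 59.9 CPM in normoxia and 57.4 and 51.6 in hypoxia, and HIF1A-/- counts of 62.5 and 47.3 in normoxia and 65.4 and 50.7 in hypoxia. Its hypoxia response had an interval of -30.3% to 26.4% in WT cells and of -21.5% to 42.4% in HIF1A-/- cells. Neither gene had groups that separated by oxygen.

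*XRCC2* (chr7:152343582-152372249, minus strand) was at 136 and 105 CPM (WT, normoxia) and 118 and 92.6 (WT, hypoxia), and HIF1A-/- cells gave 128 and 89.1 without and 127 and 99.7 with hypoxia. *FANCD2* (chr3:10069152-10143621, plus strand) was at 154 and 108 CPM in normoxia and 149.7 and 126 under hypoxia in WT libraries. The HIF1A-/- libraries had 163 and 110.5 CPM in normoxia and 159 and 130.3 under hypoxia. In both genes replicate 1 was the higher library in all 4 groups, and the oxygen groups overlapped. Within replicate pairs the log2 ratio of hypoxia to normoxia in *XRCC2* was -0.21 and -0.18 in WT cells and -0.01 and 0.16 in HIF1A-/- cells. The WT hypoxia intervals were -39.7% to 26.4% for *XRCC2* and -28.0% to 54.4% for *FANCD2*, the widest of the 7 genes.

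*PMS2* (chr7:6010555-6047736, minus strand) was at 50.2 and 50.1 CPM in normoxia and 49.0 and 43.7 in hypoxia in WT cells, while HIF1A-/- cells had 53.1 and 40.6 in normoxia and 55.6 and 43.7 in hypoxia. Both WT hypoxia libraries were below both WT normoxia libraries, as for 19.4% of gene bodies, and the HIF1A-/- groups overlapped. Its WT hypoxia interval was -31.0% to 23.8%. *PMS2* has near-identical copies elsewhere in the genome, among them *PMS2CL*, and reads with a mapping quality of 10 or less had been removed, so its counts are uncertain. *PMS2CL* itself stood at 18.0 and 17.3 CPM in WT normoxia and 22.7 and 30.3 in WT hypoxia, and was not called (log2 fold change 0.59, edgeR adjusted p = 0.897). *BRCA1* and *FANCD2* also have pseudogene copies.

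Over the 7 genes the median log2 fold change of the gene body in hypoxia was -0.001 in WT cells, with 3 values above 0, against a median of -0.018 over all gene bodies. In HIF1A-/- cells it was 0.08 with 7 of 7 above 0, against a median of 0.001 and 8376 of 16686 above 0 over all gene bodies. The 7 values above 0 include those of 5 genes that were 0.06 to 0.08 with standard errors of 0.14 to 0.24.

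**Figure D2:**
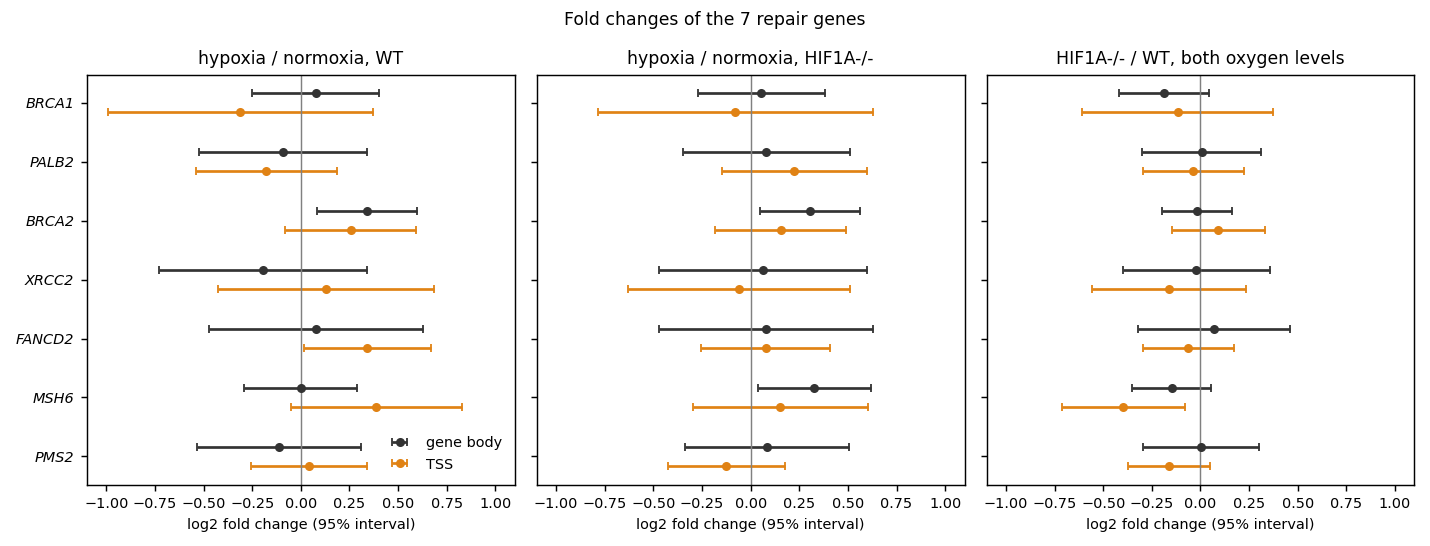
Log2 fold changes (x axis, points) with 95% intervals (bars) of the 7 repair genes for hypoxia over normoxia in WT cells, hypoxia over normoxia in HIF1A-/- cells, and HIF1A-/- over WT cells across both oxygen levels, from edgeR's test without the replicate block. Intervals clear of 0 are seen for the gene body of *BRCA2* in both genotypes and of *MSH6* in HIF1A-/- cells, for the TSS of *FANCD2* in WT hypoxia, and for the TSS of *MSH6* between genotypes; none of these passed the adjusted threshold.

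At the TSS *BRCA2*, *FANCD2* and *MSH6* had their WT hypoxia libraries above those of WT normoxia with no overlap, as did 17.2% of TSS regions, and so had *BRCA2* and *FANCD2* in HIF1A-/- cells, as did 12.2%. edgeR's test called 0 of the 7 TSS regions in WT cells, where it called 0.046% of all TSS regions, and 0 in HIF1A-/- cells, where it called 0.0%. At an unadjusted p under 0.05 the counts were 1 (*FANCD2*) and 0, and DESeq2 also called 0 in each.

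*FANCD2* (TSS region chr3:10068101-10068651) had 119 and 100.5 CPM (WT, normoxia) and 139 and 139 (WT, hypoxia), and HIF1A-/- cells gave 118 and 112 without and 121 and 122 with hypoxia. All 4 hypoxia libraries lay above all 4 normoxia libraries, as they did for 0.914% of TSS regions. The increase was 26.7% in WT cells (95% interval 1.08% to 58.8%, log2 fold change 0.34, edgeR adjusted p = 0.922) and 5.47% in HIF1A-/- cells (-16.2% to 32.7%). The gene on the other strand, *CIDECP*, had TSS counts of 81.0 and 76.2 CPM in WT normoxia and 72.1 and 75.4 in WT hypoxia, with both WT hypoxia libraries below both of WT normoxia.

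*BRCA2* (TSS region chr13:32889566-32890116) had 169 and 202 CPM in normoxia and 211 and 231 under hypoxia in WT libraries. The HIF1A-/- libraries had 226 and 184 CPM in normoxia and 229 and 227 under hypoxia. Hypoxia lay above normoxia within each genotype, as for 2.63% of TSS regions, but 1 HIF1A-/- normoxia library overlapped the hypoxia range. The WT increase was 19.4% (95% interval -5.41% to 50.6%) and the HIF1A-/- increase 11.3% (-12.0% to 40.7%). The pausing index of *BRCA2* changed by -7.76% in WT hypoxia (-32.0% to 25.1%), which was not called.

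*MSH6* (TSS region chr2:48010170-48010720) had 121 and 135 CPM in WT normoxia and 165 and 170.1 in WT hypoxia. HIF1A-/- cells gave 78.1 and 131 CPM without and 118 and 117 with hypoxia. The value of 78.1 came from the library with the lowest TSS total of all 8. WT hypoxia was 30.8% above WT normoxia (95% interval -3.54% to 77.3%), and both WT hypoxia libraries were above the other 6, a pattern whose share over all TSS regions was not counted. The gene body of *MSH6* was level in the same WT libraries, and its pausing index was 49.3 and 60.4 in WT normoxia against 67.3 and 75.9 in WT hypoxia, a log2 difference of 0.36 that was not called (edgeR adjusted p = 0.857).

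For the TSS regions of the other 4 genes, the counts ran from 18.3 to 36.6 CPM over all 8 libraries in *BRCA1*, from 95.2 to 129 in *PALB2*, from 35.8 to 58.4 in *XRCC2* and from 221 to 287 in *PMS2*. In WT hypoxia the interval of the change was -49.8% to 29.5% for *BRCA1* and -16.2% to 26.4% for *PMS2*. Both WT hypoxia libraries of *PALB2* (103 and 102 CPM) lay below its WT normoxia libraries (125 and 108), as for 17.5% of TSS regions. *NBR2*, which starts beside *BRCA1*, had 44.6 and 38.9 CPM in WT normoxia and 57.8 and 61.3 in WT hypoxia. Such a separation held for 17.2% of TSS regions. The log2 fold change of *NBR2* was 0.51 (edgeR adjusted p = 0.922), against -0.31 for *BRCA1*. Leaving out each library in turn gave *BRCA1* values between -0.73 and 0.03. *DCTN5*, beside *PALB2*, had a WT log2 fold change of 0.23 against -0.18 for *PALB2*. The difference between the responses was called for 0 of the 7 in gene bodies and at the TSS, where 0.0539% and 0.00657% of all regions were called. The test of pausing index called 0 of the 7 genes in WT and HIF1A-/- cells, where it called 0.193% and 0.0% of all genes, with 0 at an unadjusted p under 0.05, and also 0 for the difference between the responses (0.0207% of all genes) and for HIF1A-/- against WT cells over both oxygen levels (2.61%).

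**Figure D3:**
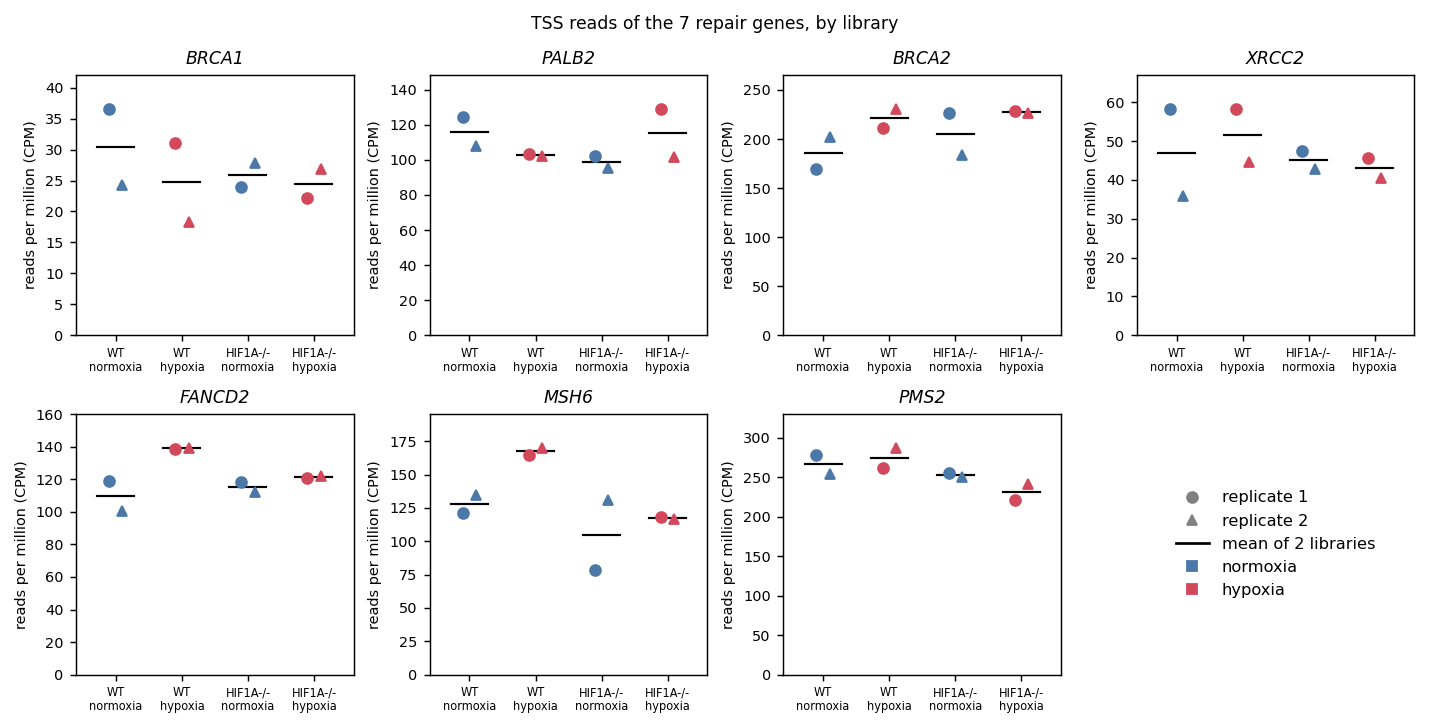
TSS counts per 1000000 reads (CPM, y axis from 0) of the 7 repair genes in the 4 groups, with each library as a point (circle, replicate 1; triangle, replicate 2) and the mean of 2 libraries as a line. All 4 hypoxia libraries of *FANCD2* lie above its 4 normoxia libraries, both WT hypoxia libraries of *MSH6* (165 and 170.1 CPM) lie above its other 6, and the *BRCA1* libraries spread from 18.3 to 36.6 CPM.

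**Figure D4:**
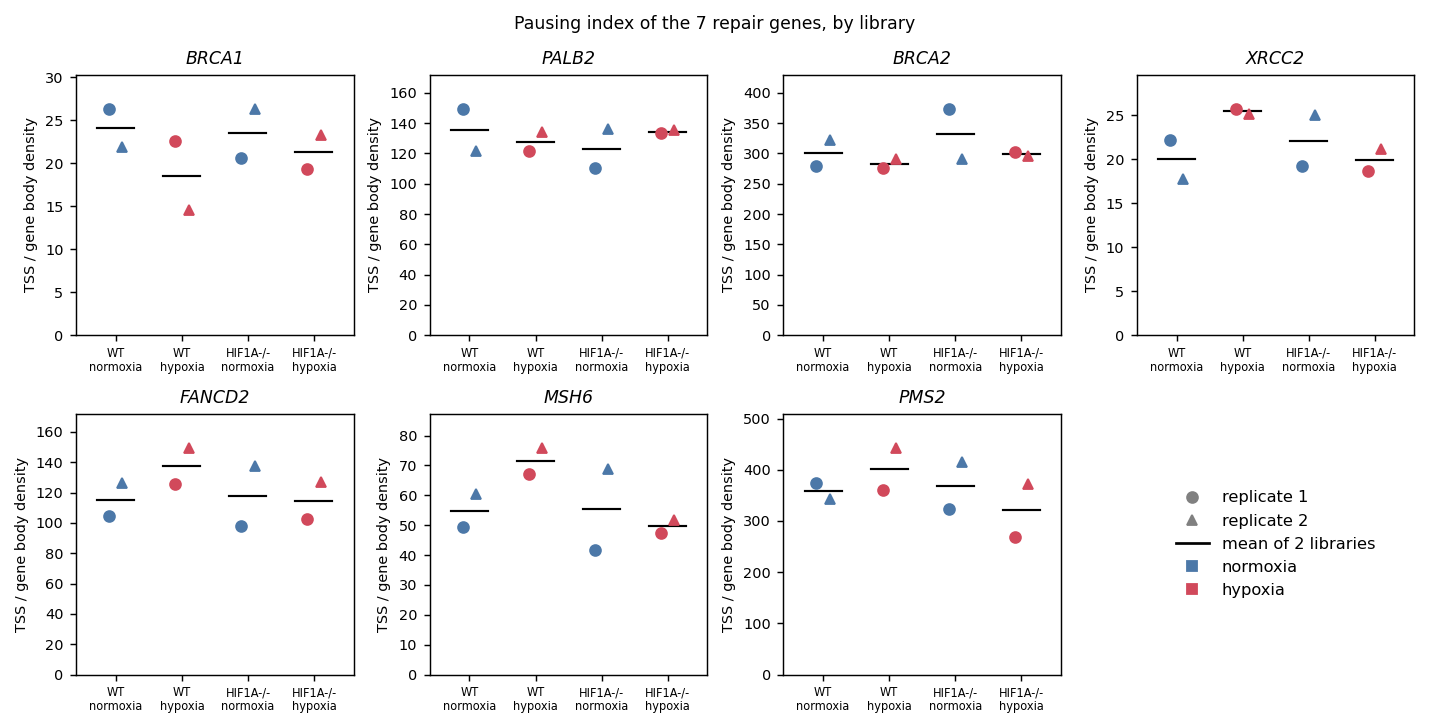
Pausing index (TSS CPM per base over gene body CPM per base, each scaled to its own total, y axis from 0) of the 7 repair genes in the 4 groups, with each library as a point and the mean of 2 libraries as a line. The genes differ far more from each other than the groups do within a gene, from 14.5 to 26.4 in *BRCA1* to 268 to 443 in *PMS2*.

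The other comparison the design holds is that of the lines themselves. Here *MSH6* counts were lower in HIF1A-/- cells at the TSS in hypoxia and in the gene body in normoxia, and *BRCA1* had lower gene body counts in HIF1A-/- cells in all 4 pairs of libraries with the same oxygen level and replicate number. The share of all gene bodies with that pattern over the 4 pairs was not counted. In hypoxia both HIF1A-/- libraries lay below both WT libraries in the gene bodies of *BRCA1* and, by a narrow margin, *BRCA2*, as for 24.6% of gene bodies, and at the TSS of *MSH6*, *PMS2* and *FANCD2*, as for 24.2% of TSS regions. In normoxia this held for the gene body of *MSH6* (17.4% of gene bodies) and the TSS of *PALB2* (17.3% of TSS regions). edgeR's test without the replicate block called 0 of the 7 gene bodies in normoxia, in hypoxia or over both oxygen levels, where it called 1.78%, 4.26% and 10.0% of all gene bodies, and 0 of the 7 TSS regions, where it called 0.657%, 1.1% and 6.39%. At an unadjusted p under 0.05 the counts were 1 (*MSH6*), 0 and 0 for gene bodies and 0, 1 and 1 (*MSH6* in both) for TSS regions. DESeq2 called 0 in each.

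At the TSS in hypoxia *MSH6* had 165 and 170.1 CPM in WT and 118 and 117 in HIF1A-/- cells, with no overlap. The HIF1A-/- count differed by -29.9% (95% interval -48.4% to -4.81%, log2 fold change -0.51), for which edgeR gave an adjusted p of 0.302 and 0.0339 with the replicate block, which called 14.4% of TSS regions. Over both oxygen levels the log2 fold change was -0.40, with adjusted p-values of 0.160 and, with the block, 0.0124, where the block called 22.3% of TSS regions. In normoxia it was -0.28 and rested on the library with 78.1 CPM, since without that library it was 0.03, and over both oxygen levels it was then -0.24 (adjusted p = 0.399). In that library and in replicate 1 of HIF1A-/- hypoxia the TSS total was 12.7% and 14.8% of the gene body total, against 20.3% to 25.3% in the other 6, and the part of this in the *MSH6* difference was not tested. In the gene body in normoxia *MSH6* differed by -19.5% (-34.2% to -1.58%), for which edgeR gave an adjusted p of 0.491 and 0.0792 with the block, which called 10.3% of gene bodies. In hypoxia the gene body difference was 1.11% (-17.3% to 23.6%).

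*BRCA1* gene body counts over both oxygen levels differed by -12.3% in HIF1A-/- against WT cells (95% interval -25.2% to 2.92%, log2 fold change -0.19), for which edgeR gave an adjusted p of 0.329 and 0.0772 with the replicate block, which called 36.0% of all gene bodies. *BRCA2* differed by -1.21% in the same comparison, with an interval of -12.9% to 12.1%, the narrowest of the 7. For *PALB2*, *XRCC2*, *FANCD2* and *PMS2* the gene body differences between lines were between -1.42% and 4.88%, with intervals that stayed within -24.1% and 37.4%.

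Libraries also differed by replicate number, which is not a condition. In the fit with the replicate block, gene bodies of *FANCD2* and *XRCC2* were lower in replicate 2 than in replicate 1, with a log2 fold change of -0.40 in each (adjusted p = 0.00728 and 0.00502 from edgeR's test), and so was *PMS2* (-0.23, adjusted p = 0.0631). The same fit called 46.6% of all gene bodies for replicate number. *BRCA1* (-0.15), *PALB2* (-0.21), *MSH6* (-0.10) and *BRCA2* (0.04) were not called. At the TSS only *XRCC2* was called (-0.36, adjusted p = 0.0918), and so were 18.3% of all TSS regions. For *BRCA2* the hypoxia difference of 0.32 was larger than the replicate difference, while for *XRCC2*, *FANCD2*, *PALB2*, *PMS2* and *BRCA1* the replicate difference was the larger of the 2 in size. What the replicate number stands for beyond separate cultures is not given in the sources used here.

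**Figure D5:**
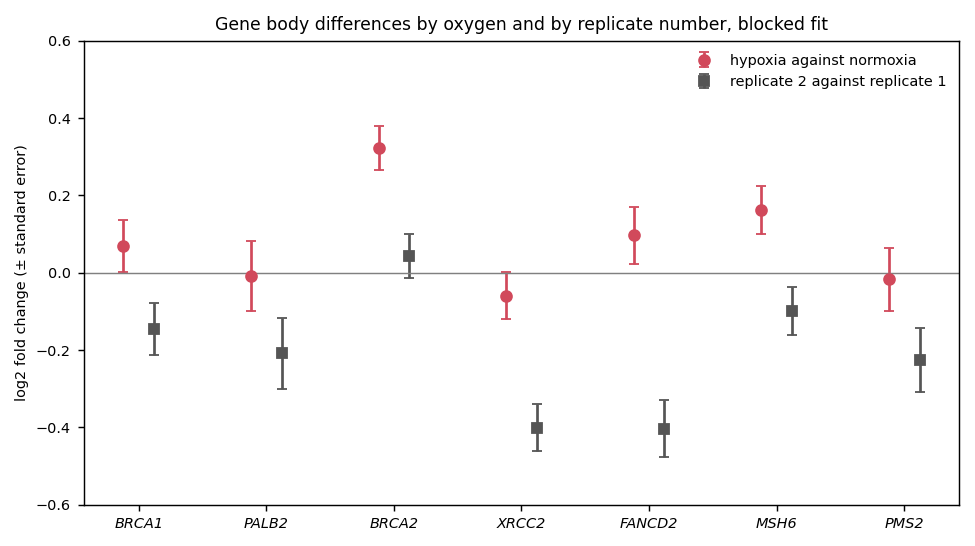
Log2 fold changes of gene body counts (y axis, ± standard error) of the 7 repair genes in the fit with the replicate block, for hypoxia against normoxia over both genotypes (red circles) and for replicate 2 against replicate 1 (grey squares). *BRCA2* has the largest oxygen difference (0.32) and a replicate difference near 0 (0.04), while *XRCC2* and *FANCD2* have replicate differences of -0.40.

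Some of the 7 genes moved together over the libraries and *BRCA2* less so. Gene body log2 CPM of *PMS2* and *PALB2* correlated at a Pearson r of 0.98 over 8 libraries, *XRCC2* correlated with *PMS2* at 0.88 and with *FANCD2* at 0.85, whereas *BRCA2* had values from -0.28 with *XRCC2* to 0.49 with *MSH6*. These points share groups, libraries and depth, and the values are a description with no test. Genes outside the 7 whose gene bodies were most like the mean profile of the 7 were *CENPM*, a centromere protein gene (r = 0.98), *LOC101927572* (0.95), *TERT*, the telomerase catalytic subunit (0.95), *DAGLB* (0.95) and *ACSF3* (0.94), over the same 8 libraries. *TERT*, too, was higher in replicate 1 of each group, at 54.8 and 41.8 CPM in replicates 1 and 2 of WT normoxia and 47.1 and 22.2 in those of HIF1A-/- normoxia.

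Other genes of the same pathways were taken from lists written with earlier results of these data known. In hypoxia edgeR's test called none of 35 other homologous recombination genes, 15 other mismatch repair genes, 18 other Fanconi anaemia genes, 14 end joining genes or 39 replication and S phase genes, in gene bodies or at the TSS, in either genotype. It called 0.431% of all gene bodies and 0.046% of all TSS regions in WT cells, and 0.0% of each in HIF1A-/- cells. Their median gene body log2 fold changes in WT cells were -0.02, -0.02, -0.04, -0.07 and -0.08, beside -0.02 over all gene bodies. In HIF1A-/- cells they were -0.03, 0.03, 0.01, -0.06 and 0.11, beside 0.001 over all gene bodies, with 29 of 39 replication and S phase genes and 1 of 14 end joining genes above 0. With the replicate block the call in WT gene bodies was *TK1*, the thymidine kinase of S phase (0.34, adjusted p = 0.0874), in a fit that called 5.51% of all gene bodies. Over both genotypes the block also called *BRIP1*, the helicase partner of BRCA1 (0.30, adjusted p = 0.0574), *TK1* again and, lower, *FEN1*, a flap nuclease (-0.26, adjusted p = 0.0963), where it called 10.1% of all gene bodies.

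Direct HIF targets were read in the same libraries for scale. Of 26 such genes taken as a reference, 19 were called higher in gene bodies in WT hypoxia and none in HIF1A-/- hypoxia, with median log2 fold changes of 2.12 and 0.04. *PDK1*, a kinase that shuts off pyruvate dehydrogenase, had a log2 fold change of 2.70 (edgeR adjusted p = 0.00389). The largest of the 7 repair genes, *BRCA2*, had 0.34.

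Between the lines *MLH3*, a mismatch repair gene, was called lower in HIF1A-/- cells at both oxygen levels, which none of the other 14 genes of its list was. Its gene body log2 fold change was -0.83 in normoxia (adjusted p = 0.0453) and -0.96 in hypoxia (edgeR adjusted p = 0.0186), where 1.78% and 4.26% of all gene bodies were called. Its pausing index was higher in HIF1A-/- cells over both oxygen levels (log2 change 0.85, adjusted p = 0.0469). *ERCC1*, a nuclease subunit that acts on crosslinks, was higher over both oxygen levels (0.51, adjusted p = 0.0265), as was *XRCC4*, of end joining (0.40, adjusted p = 0.0823), and *PRIM1*, the primase subunit, was lower (-0.34, adjusted p = 0.0970). Over both oxygen levels 10.0% of all gene bodies were called. Of the 35 other recombination genes none was called in gene bodies without the block, and with it the calls were 3 higher and 8 lower over both oxygen levels, or 31.4% against 36.0% of all gene bodies. At the TSS over both oxygen levels *POLD2*, a DNA polymerase delta subunit on the mismatch repair list, was called lower (-0.34, adjusted p = 0.0953), and the pausing index of *RAD52*, a recombination gene, was called higher (0.82, adjusted p = 0.0851). The same comparison called 6.39% of all TSS regions and, for pausing index, 2.61% of all genes.

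*HIF1A* itself had 129.5 to 175 CPM in its gene body over all 8 libraries. Its deletion leaves the TSS in place, so these counts do not test the genotype. The total count of a library was between 18125234 and 23622392 in gene bodies and between 2783581 and 5966348 at the TSS, with the 2 lowest TSS totals in replicate 1 of the HIF1A-/- groups. Of 11 colon epithelial markers in the tables, 8 were over 1 CPM in every library, and *VIL1*, *CDX1* and *CEACAM5* were under 1 CPM in every library. Of 11 markers of other cell types, 7 were under 1 CPM in every library, and *CD68*, *COL1A1* and *PDGFRB* were over 1 CPM in every library.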

How the data were processed

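PRO-seq was done on HCT116 WT and HIF1A-/- cells in normoxia or hypoxia, with 2 libraries in each of 4 groups. Per the labels and the study's methods, reads were trimmed, aligned to GRCh37 (hg19) with HISAT2 2.1.0 without splicing, filtered with SAMtools 1.5 for a mapping quality over 10 and counted by featureCounts (Subread 1.6.2), and the deposited values are raw read counts that the authors took over 1 TSS region and 1 gene body for each gene.

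From these counts, regions over 0.5 CPM in at least 2 libraries were tested in R 4.3.3 with edgeR 4.0.16 (TMM, quasi-likelihood, 4 group means over all 8 libraries, Benjamini-Hochberg over all regions, FDR 10%). Every adjusted p is from edgeR unless DESeq2 (1.42.0) is named. CPM uses TMM-scaled totals, and percent changes are from the fitted log2 fold changes. The p-values weigh a difference against the spread within groups of 2 cultures, estimated from all 4 groups together. Pausing index was tested in 1 fit over 16 count columns. The scripts were tested on simulated data.

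Libraries with the same replicate number deviated from their group means together in 6 of 6 pairs of groups (Pearson r between 0.48 and 0.79 in the gene body table and between 0.22 and 0.52 in the TSS table), so the number was taken to pair them and a fit with it as a block is given where it changes a call. Genes named were the 7 themselves, list genes called in either fit (up to 4 in a list and comparison), upstream neighbours within 1000 bp on the other strand, the 5 most similar genes and *HIF1A*. *PMS2CL* was added after values were seen. The members and lists were chosen with earlier results of these data known. The alternatives tried were DESeq2, totals without TMM, other filters on low counts, the block, only the compared groups, and each library left out.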

Additional observations from a re-analysis of the deposited data

Results flagged for a closer look

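In 3 cases among the gene bodies and TSS regions of the repair genes, the response to hypoxia ran in opposite directions in the genotypes in both replicate pairs. The share of all gene bodies or TSS regions with that pattern was not counted, so whether 3 cases are more than usual is not known. At the TSS of *PALB2* the log2 ratio of hypoxia to normoxia was -0.27 and -0.08 in the replicates of WT cells and 0.34 and 0.09 in those of HIF1A-/- cells, and the WT response minus the HIF1A-/- response was -0.40 in the fit. In the gene body of *PMS2* the ratios were -0.04 and -0.20 in WT and 0.07 and 0.10 in HIF1A-/- cells, with a difference of -0.20. At the TSS of *XRCC2* they were 0.01 and 0.32 in WT and -0.05 and -0.08 in HIF1A-/- cells, with a difference of 0.19. None of the 3 differences was called by edgeR's test of the interaction, with an adjusted p of 1.00 for each.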

How the results depend on the processing

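Of 269 alternatives to the counts of called genes, over 19 comparisons, 252 gave the same count and 17 gave 1 called gene in place of 0. In HIF1A-/- against WT cells the call was *MSH6* at the TSS in hypoxia with no filter on low counts, with the replicate block and with only the compared groups (1 each; leaving out each library gave 0 to 1, with 1 without either HIF1A-/- normoxia library), and in normoxia without replicate 2 of HIF1A-/- normoxia (0 to 1). Over both oxygen levels it was *MSH6* at the TSS with no filter, with the block and with DESeq2 and the block (1 each; 0 to 1 on leaving out each library, with 1 without replicate 2 of HIF1A-/- normoxia), and *BRCA1* in the gene body with the block (1). *MSH6* was called in the gene body in normoxia with the block (1). For hypoxia the call was *BRCA2* in the gene body, in WT cells with the block and with DESeq2 and the block (1 each), and over both genotypes with DESeq2, the block and both (1 each). The adjusted p of *BRCA2* ran from 0.0544 to 1.00 in WT cells over the alternatives, and from 0.00293 to 1.00 over both genotypes. The block raised the gene bodies called in WT hypoxia from 72 to 919 and the TSS regions called between lines in hypoxia from 168 to 2196, with DESeq2 at 175 and 312. Of 1883 alternatives for single genes, 17 brought a call, 160 changed the sign of a value called on neither side, and 0 reversed a call. The comparison over both genotypes and DESeq2 with the block were added after the data were seen. The intervals given are from the fit without the block, so differences by replicate number are part of their width, as is the limit of 2 libraries a group. The common dispersion, edgeR's estimate of the spread within groups, was 0.0376 in gene bodies without the block and 0.0110 with it.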
